A study of Mus musculus with 2 samples.

Results

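Hydroxymethylated CG sites were examined where they lay most densely in the genome of E14, a mouse cell line established from the embryo as pluripotent stem cells and taken at passage 12. The chromosomes from 1 to 19, without 8 and 11, were divided into 1 kb bins, and the dense bins were chosen by 1 measured value, the number of CG cytosines listed in the table, which had to be 40 or more. This gave 3207 dense bins among 1509652 bins of these 17 chromosomes with at least 1 listed CG, or 0.212% of them. The whole series had 1763036 such bins. Genomic DNA had been glucosylated and cut with AbaSI, an enzyme that cuts beside glucosylated 5-hydroxymethylcytosine (5hmC), so each listed cytosine carries a count of the reads assigned to it. The 2 libraries, both of E14 DNA and with no control group beside them, stand in the deposited table as 1 pooled count per cytosine. There is therefore no replicate error, and every comparison below is a description without a test.

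5hmC is made from 5-methylcytosine by the TET dioxygenases, and in mammals it sits mostly at CG. A CG reads CG on both strands, so the pair of cytosines facing each other is called a dyad, and each strand can be listed by itself. Embryonic stem cells express Tet1 and Tet2. In these cells, promoters rich in CG are mostly free of methylation, while those of many germline genes are methylated or held silent by a Polycomb complex with the factors E2F6, MGA and MAX.

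To give dense bins a gene name without a genome of the table's build (mm9), the pattern of listed CG positions was compared with RefSeq promoter sequences of build GRCm38.p6, each covering 250 bases before and 50 after an annotated start. A sequence was placed where every listed CG inside its window fell on a CG of the sequence and the match was specific by a score of at least 12, computed from the number and density of matching CGs. Of 22679 genes with such a sequence, 626 could be placed anywhere on these chromosomes, and 110 of them had their start in a dense bin. These starts lay in 106 of the 3207 dense bins, so the genes named below describe a small part of the dense bins. All 656 placed windows, some genes having several, lay in the same order along their chromosome as in RefSeq. Cytosines outside CG were not used for the placement, and all 109 of those listed inside the windows had the bases that the sequence has there. A dense bin without a placed start is not shown to lack a promoter, because placed windows had at least 8 listed CGs and none that the sequence lacks.

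The following 7 promoters with their start in a dense bin show base by base which CGs were listed. Of them, 6 belong to germ cell genes and Amn does not. They were chosen after their values were seen and do not stand for all starts in dense bins. The sequences run 5′ to 3′ along the gene, and capitals mark the CGs listed as hydroxymethylated on at least 1 strand, while a CG in lower case was not listed. The coordinates of these sequences are of GRCm38.p6 and cannot be set against the mm9 positions given for bins. Tex12 lies at chr9:50561219-50561518 (minus strand), Fkbp6 at chr5:135349864-135350163 (minus), Mov10l1 at chr15:88982744-88983043 (plus), Dazl at chr17:50293571-50293870 (minus), Brdt at chr5:107330944-107331243 (plus), Sycp3 at chr10:88459337-88459636 (plus) and Amn at chr12:111270846-111271145 (plus).
Tex12: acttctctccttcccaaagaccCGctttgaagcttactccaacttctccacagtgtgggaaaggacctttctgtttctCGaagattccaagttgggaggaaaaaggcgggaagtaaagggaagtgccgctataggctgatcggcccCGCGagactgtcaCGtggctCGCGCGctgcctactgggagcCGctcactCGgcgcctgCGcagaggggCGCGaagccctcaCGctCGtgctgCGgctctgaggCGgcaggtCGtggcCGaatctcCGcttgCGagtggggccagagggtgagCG
Fkbp6: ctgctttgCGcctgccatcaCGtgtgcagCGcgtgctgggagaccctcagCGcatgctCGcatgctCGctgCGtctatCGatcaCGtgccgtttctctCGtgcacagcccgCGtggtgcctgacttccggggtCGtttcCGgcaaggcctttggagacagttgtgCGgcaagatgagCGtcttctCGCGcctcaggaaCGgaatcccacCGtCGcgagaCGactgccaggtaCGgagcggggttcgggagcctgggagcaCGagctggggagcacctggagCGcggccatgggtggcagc
Mov10l1: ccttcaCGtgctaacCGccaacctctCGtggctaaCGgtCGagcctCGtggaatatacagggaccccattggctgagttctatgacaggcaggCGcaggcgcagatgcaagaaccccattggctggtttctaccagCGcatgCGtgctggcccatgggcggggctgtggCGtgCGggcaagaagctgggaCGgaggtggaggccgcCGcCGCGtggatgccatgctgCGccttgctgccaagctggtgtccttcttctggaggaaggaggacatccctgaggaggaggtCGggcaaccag
Dazl: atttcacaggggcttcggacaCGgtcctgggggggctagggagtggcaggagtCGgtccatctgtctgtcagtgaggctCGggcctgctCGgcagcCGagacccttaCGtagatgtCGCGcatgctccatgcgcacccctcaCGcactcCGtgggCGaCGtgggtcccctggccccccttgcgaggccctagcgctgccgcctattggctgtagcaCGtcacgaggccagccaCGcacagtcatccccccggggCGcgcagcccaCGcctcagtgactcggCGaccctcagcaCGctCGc
Brdt: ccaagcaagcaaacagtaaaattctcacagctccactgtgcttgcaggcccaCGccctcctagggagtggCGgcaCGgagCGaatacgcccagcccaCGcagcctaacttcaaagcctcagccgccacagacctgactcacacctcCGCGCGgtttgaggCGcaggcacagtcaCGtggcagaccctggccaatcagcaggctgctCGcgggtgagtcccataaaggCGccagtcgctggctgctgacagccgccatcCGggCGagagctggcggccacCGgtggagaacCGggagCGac
Sycp3: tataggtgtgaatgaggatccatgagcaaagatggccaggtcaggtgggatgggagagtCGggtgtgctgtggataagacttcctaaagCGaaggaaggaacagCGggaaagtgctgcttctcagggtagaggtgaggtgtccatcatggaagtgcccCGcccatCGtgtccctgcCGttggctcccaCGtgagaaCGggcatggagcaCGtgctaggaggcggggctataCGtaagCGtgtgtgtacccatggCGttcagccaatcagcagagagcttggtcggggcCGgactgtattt
Amn: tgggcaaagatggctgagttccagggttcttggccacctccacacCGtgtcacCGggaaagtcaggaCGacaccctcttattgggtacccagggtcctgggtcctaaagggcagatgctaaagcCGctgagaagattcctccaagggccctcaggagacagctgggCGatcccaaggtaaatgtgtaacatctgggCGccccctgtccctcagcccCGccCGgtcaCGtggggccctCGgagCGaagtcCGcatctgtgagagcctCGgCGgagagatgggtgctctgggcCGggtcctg

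Meiotic chromosome proteins made up a first group of these starts. Tex12, a protein of the central element of the synaptonemal complex, had 22 of the 26 CGs in its window listed, 10 of them on both strands, with 246 reads over 32 cytosines. Its bin, chromosome 9 from 50369001 to 50370000, held 52 CG cytosines. Fkbp6, a co-chaperone needed in male meiosis and in piRNA production, had 24 of 32 CGs listed with 677 reads over 33 cytosines, in a bin on chromosome 5 from 135825001 to 135826000 with 53 CG cytosines. In the Fkbp6 window the listed CGs run along the whole sequence, whereas in that of Tex12 most lie towards the 3′ end. Most CGs of the Tex12 window, listed or not, lie towards that end. Sycp3, a protein of the chromosome axis in meiosis, had 13 of 15 CGs listed with 309 reads. Syce1, another central element protein, had 13 of 14, and Hormad1, which marks unsynapsed axes, had 17 of 24 with 431 reads. Sycp2l, an axis protein of oocytes, had 11 of 16 and Ankrd31, a factor that helps place meiotic DNA breaks, 10 of 17.

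Genes of the piRNA pathway, which silences transposons in germ cells, formed a second group. Mov10l1, an RNA helicase that feeds precursor transcripts into the pathway, had 17 of 20 CGs listed, 12 on both strands, with 501 reads, and its bin on chromosome 15 held 68 CG cytosines. Tdrd1, a Tudor-domain protein of the germ granule, had 19 of 25 CGs listed with 231 reads. Mael had 14 of 24 CGs listed, and 0 of them on both strands, with 145 reads. Henmt1, the methyltransferase that modifies the 3′ ends of piRNAs, had the lowest listed share of the 32 germ cell genes, 13 of 31. Btbd18, a regulator of piRNA precursor transcription, had 12 of 23.

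Regulators and RNA-binding proteins of germ cells were the next group. Dazl, an RNA-binding protein required for gametogenesis, had 19 of 28 CGs listed, but only 3 on both strands, with 237 reads over 22 cytosines. Brdt, a testis bromodomain protein, had 17 of 23 with 342 reads. Dmrtb1 and Taf7l2 had 16 of 28 and 16 of 22, Figla, a transcription factor of the oocyte, 10 of 16, and Zglp1 10 of 17. D1Pas1, a testis helicase, had 12 of 15 in a bin with 67 CG cytosines. Sperm and testis genes included Slc25a31, an ADP/ATP carrier, with 15 of 22, the alpha-tubulins Tuba3b with 13 of 16 and Tuba3a with 10 of 12, the kinase gene Tssk3 with 10 of 10 and the cytoskeletal calicin gene Ccin with 9 of 9.

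These genes were compared with a list of 152 germ cell genes, written from general knowledge after the names of placed genes had been seen, so its counts are a description only. The promoter table held 111 of the 152. Of these 111, 51 could be placed, or 45.9%, and of all 22679 genes 2.76% could. Among placed genes, 32 of the 51 on the list had their start in a dense bin, or 62.7%, against 17.6% of all 626 placed genes. By the role written with the list, dense bins held 7 of the 11 placed genes of the synaptonemal complex and chromosome axis. They held 5 of the 11 of the piRNA pathway, 5 of the 8 transcription and chromatin factors and 3 of the 4 in RNA binding and translation. They also held 11 of the 15 testis and sperm genes and 1 of the 2 filed under recombination, Topaz1. These roles are approximate, and Ankrd31, described above by meiotic DNA breaks, was filed under the chromosome axis. Of the 9 egg protein genes in the table, such as those of the egg coat, 0 could be placed. The list holds names added because they had been seen among the placed genes. This raises the share placed by construction and can raise the share in dense bins. Placement also needed listed CGs, at least 8 in each placed window, so both shares are linked to the count that chose the dense bins. How much of these differences is built in was not tested.

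The other 19 placed genes of the list started in bins with 16 to 38 listed CG cytosines. Of these, 2 lay within 100 bp of a dense bin: Sohlh2, a germ cell transcription factor, with 14 of 17 CGs listed, and Sycp1, the transverse filament of the synaptonemal complex, with 13 of 21. Asz1 and Stk31 of the piRNA pathway had 14 of 17 and 16 of 29, and Stra8, the gene of meiotic entry, had 9 of 10. Placed germ cell promoters were thus found on either side of the threshold.

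The 78 genes off the list with a start in a dense bin comprised 39 gene models or clone names and 39 genes with other names. Amn, the amnionless receptor subunit of kidney and gut, had all 15 CGs listed with 266 reads. Nedd4, a ubiquitin ligase, had 12 of 13 with 336 reads, Cxcl10, a chemokine, 10 of 10 with 129 reads, and Tcf21, a mesodermal transcription factor, 8 of 8 with 259 reads. In the 32 germ cell windows, 72.3% of the CGs were listed, against 75.02% in these 78 and 82.6% in the 516 placed windows whose start lay outside dense bins. These shares are set in part by the placement, which takes a window with few CGs only where nearly all are listed and one with many CGs at a lower share, so they are not compared further. Windows in dense bins had more CGs, with a median of 15 against 11, and the number listed was 11 against 9. These numbers are linked to the count of listed CGs that chose the bins. Pooled over windows, reads per listed cytosine were 14.5 in dense bins and 14.5 outside them. Over all dense bins the value was 17.03, and 53.4% of dyads were on both strands, against 45.7% in the windows placed there. The placed windows therefore do not stand for the dense bins in these values.

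**Figure D1:**
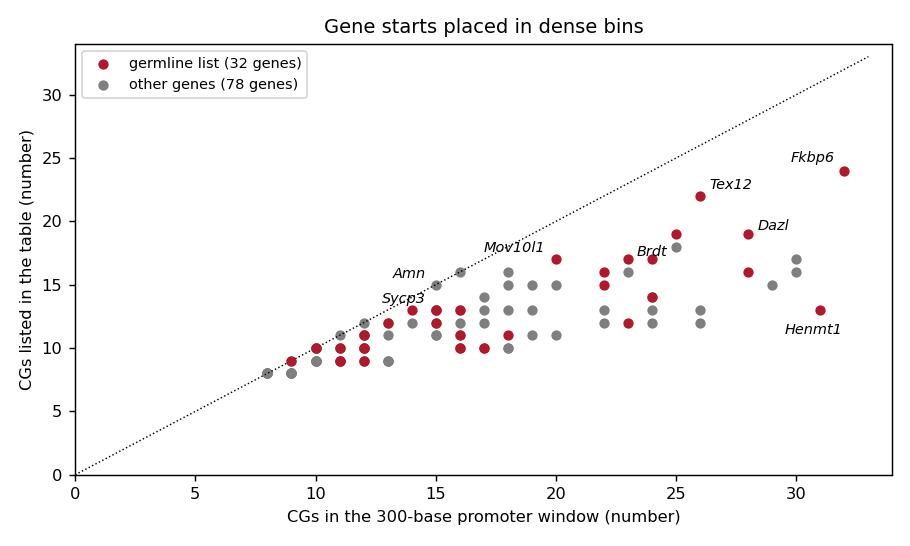
Each point is a gene whose promoter window was placed with its start in a dense bin: the number of CGs in its 300-base window (x axis) against the number of those listed in the table (y axis). Genes of the germ cell list are red and other genes grey, points can overlap, and the dotted line marks windows with every CG listed, such as Amn with 15 of 15.

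The windows were searched on both strands for CACGTG, the E-box read by factors such as MAX and MGA, and for GCGGGAA, letters found in sites of E2F factors; the motifs do not overlap each other. CACGTG was present in 20 of the 110 windows with a start in a dense bin (18.2%, exact interval 11.5 to 26.7), against 11.8% (9.16 to 14.9) of the 516 placed windows that started in another bin and 7.01% of all 27665 promoter windows on these chromosomes. The intervals of the dense starts and of the other placed starts overlap. In the 32 germ cell windows it was present in 13 (40.6%, 23.7 to 59.4), and in the other 78 in 7 (8.97%, 3.68 to 17.6). It was in 9.32% of table windows with 11 to 19 CGs, the middle range of the dense starts. GCGGGAA was present in 12 of the 110 (10.9%, 5.77 to 18.3), against 3.68% (2.23 to 5.69) of the placed windows that started in another bin, 4.57% of all windows and 6.44% of those with 11 to 19 CGs. It was in 7 of the 32 germ cell windows and in 5 of the other 78. The germ cell list was written after the names of placed genes had been seen. Its windows outside dense bins were not counted apart, so these values cannot separate germ cell promoters at large from those in dense bins. Among the sequences above, CACGTG is in those of Tex12, Fkbp6, Mov10l1, Brdt, Sycp3 and Amn and not in that of Dazl. GCGGGAA is in those of Tex12 and Sycp3. These 7 sequences were chosen after their values were seen and do not stand for the 110 windows, of which 18.2% held CACGTG. A match describes letters and is not evidence of a bound factor.

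The dense bins as a whole held 147299 CG cytosines on 96005 dyads, which is 1.44% of the listed CG cytosines of these chromosomes and 1.85% of the CG reads. A dense bin had a median of 44 listed CG cytosines on 29 dyads and 752 reads. The middle 90% of dense bins had 40 to 59 CG cytosines, 24 to 39 dyads and 503.3 to 1152.7 reads. There were 636 bins with 50 or more, 155 with 60 or more and 6 with 100 or more. Just inside the threshold, the 890 bins with 40 or 41 had 17.06 reads per CG cytosine and 53.4% of dyads on both strands. Just outside it, the 1267 bins with 38 or 39 had 16.98 and 54.8%.

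Reads per site were read along the number of CG cytosines per bin, since the threshold cuts a continuous range. The median over bins of the mean reads per CG cytosine was 8 in bins with 1 to 9, 12.7 with 10 to 19, 15.3 with 20 to 29 and 16.3 with 30 to 39. In the dense bins it was 16.7 with 40 to 49, 16.6 with 50 to 59 and 16.1 with 60 or more. Reads per site thus climbed up to about 20 to 39 listed cytosines and changed little among the dense bins. By chromosome, dense bins averaged 16.9 ± 0.463 reads per CG cytosine, against 13.1 ± 0.669 in all other bins (SD, n = 17 chromosomes), and were higher on 17 of 17. Against bins with 30 to 39, which had 16.8 ± 0.248, they were higher on only 10 of 17. The lowest listed count was 2, so a cytosine with fewer reads is not listed. Reads per site are therefore linked to the number of listed cytosines that chose the bins. How much of the differences the choice builds in was not tested.

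Reads were spread over the cytosines of a dense bin. The cytosine with the most reads held a median of 7.06% of the CG reads of its bin, and in 35 bins (1.09%) it held 20% or more. Consecutive listed dyads lay a median of 20 bp apart, against 26 bp in bins with 30 to 39 and 61 bp in all bins that were not dense. This spacing follows from the number of dyads, with a median of 29 in dense bins, 21 in bins with 30 to 39 and 4 in the others. When a bin was cut into stretches of 100 bp, all 10 held a listed dyad in 1295 dense bins (40.4%), against 15.7% of bins with 30 to 39, which again moves with the number of dyads by construction.

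Both strands of a CG were listed in 51284 of the 96005 dyads of dense bins, or 53.4% (exact 95% interval 53.1 to 53.7, counting error only), against 35.7% (35.69 to 35.76) in the other bins. The share was higher on 17 of 17 chromosomes, where it ranged from 50.7% to 55.5% in dense bins and from 33.5% to 38.04% in the others. A dyad on both strands adds 2 cytosines to the count that chose the bins, so part of this difference is built into the choice. Along the classes the share was 22.9%, 43.0%, 51.5% and 54.3% in bins with 1 to 9, 10 to 19, 20 to 29 and 30 to 39, and 53.8%, 52.1% and 52.2% in dense bins with 40 to 49, 50 to 59 and 60 or more. Between single dense bins it varied from 12.5% to 90.9%, with a median of 54.8%. Where both strands were listed, their counts differed by more than 3-fold in 24.7% of dyads in dense bins (24.3 to 25.1). This was 23.9% (23.7 to 24.1) in bins with 30 to 39 and 21.9% (21.8 to 21.9) in all bins that were not dense.

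Bins were also chosen on a single strand, without using the count of the other strand. Both strands share their CGs, so that count is still linked to the choice. How much of the values below is built in by this was not tested. The 3973 bins with 20 or more plus-strand CG cytosines had a median of 21 on the minus strand, with 5% of bins below 15 and 5% above 29, against a mean of 3.39 over all bins. Chosen on the minus strand, 3877 bins had a median of 21 on the plus strand. The dense bins as chosen had 50.2% of their CG cytosines on the plus strand (49.9 to 50.4).

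**Figure D2:**
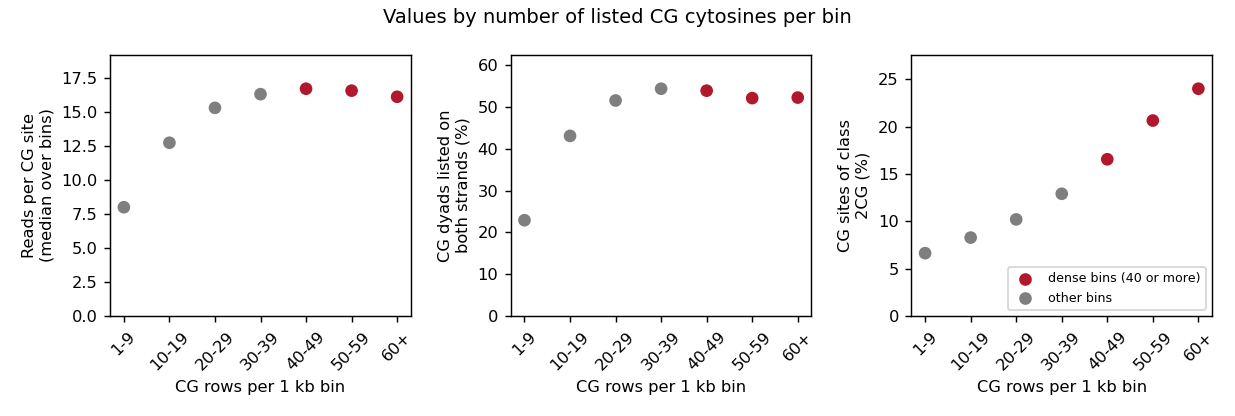
Bins are grouped along the x axis by their number of listed CG cytosines per 1 kb, with dense bins in red. The panels show reads per CG cytosine (median over bins), the share of CG dyads on both strands and the share of class 2CG. The first and second level off from 20 to 39 upward, while the third reaches 23.998%. Nearly all 2CG cytosines had a further listed CG nearby, so the third panel is linked to the x axis.

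The table gives each cytosine a class code, of which 1 is 2CG. Of the 2CG cytosines in dense bins, 25965 of 26220 (99.03%) had a listed CG on the opposite strand 21 to 24 bp away, and in the other bins 98.7% did. Of the cytosines of class 1CG, 5.57% in dense bins and 1.88% elsewhere did. The class 2CG covered 17.8% of the CG cytosines of dense bins (17.61 to 17.997), against 8.15% (8.14 to 8.17) in the other bins. Since nearly all cytosines of the class had a further listed CG nearby, its share is linked to the number of listed CGs that chose the bins. How much of the difference the choice builds in was not tested. Along the classes of bins it was 6.65% with 1 to 9 CG cytosines and 23.998% with 60 or more.

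A dense bin held a mean of 0.833 listed cytosines outside CG (CH), against 0.371 in the other bins, and more than the others on 17 of 17 chromosomes. A single run on chromosome 17, described next, held 557 of the 2672 CH cytosines of all dense bins, and without it the mean was 0.661, against 0.684 in bins with 30 to 39 CG cytosines. Of the dense bins, 2228 or 69.5% listed no CH cytosine. As a share of all listed sites, CH made up 1.78% (1.72 to 1.85), or 1.42% without that run, against 5.25% (5.23 to 5.26) in the other bins. The CG cytosines that chose the bins are in the denominator of this share, which lowers it by construction.

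Dense bins were mostly single. Merging neighbours gave 2859 runs, of which 2582 (90.3%) were 1 bin long, 232 were 2 bins and 36 were 3 bins, while 9 were longer. The longest run covered 12 kb of chromosome 15 from 76003001 to 76015000 with 787 CG cytosines, 14686 reads, 49.1% of dyads on both strands and 3 CH cytosines. The next covered 9 kb of chromosome 4 from 141027001 to 141036000 with 510 CG cytosines and 8807 reads. Runs of 5 kb on chromosome 10 started at 79774001 and at 79437001 and held 256 and 241 CG cytosines. No promoter was placed in these 4 runs or within 5 kb of them, and they are given by position only.

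The run of 6 kb on chromosome 17 from 39980001 to 39986000 stood apart from the rest. Its 6 bins were the 6 with the most CG cytosines, at 102 to 207 each, against at most 93 in any other dense bin. It listed 875 CG cytosines with 16222 reads, 67.6% of dyads on both strands (63.4 to 71.6) and 38.9% CH among its sites (36.4 to 41.5). From general knowledge of the mouse assembly, a copy of the ribosomal RNA gene lies in this region of chromosome 17, but the run was not compared with an annotation, and the part of a repeated sequence in its values was not tested. Outside this run, the densest were the bins starting at 76009001 on chromosome 15 (93), at 131456001 on chromosome 4 (87) and at 76007001 on chromosome 15 (80). Bins with 78 followed on chromosome 2 at 165206001, on chromosome 7 at 52263001 and on chromosome 10 at 80616001, and these 3 had 1337, 1158 and 863 reads.

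By reads, the highest bins were 4 of that chromosome 17 run, with 2667 to 3548. The next was chromosome 17 from 30940001 to 30941000 with 2181 reads on 57 CG cytosines and 72.7% of dyads on both strands. Close behind it, chromosome 2 from 25293001 to 25294000 had 2180 reads on 45, of which 29.3% fell on a single cytosine. The 5 bins with the fewest reads had 298 to 325 reads on 40 to 43 CG cytosines, and 22.9% to 33.3% of their dyads were listed on both strands. The lowest of these, chromosome 5 from 73398001 to 73399000, held the start of Slc10a4, a member of the bile acid transporter family, with 10 of its 18 CGs listed.

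Dense runs lay in broader stretches of listed CG. The bins next to a run held a mean of 19.7 CG cytosines over both sides, with 19.69 before the run and 19.63 after it. The mean over both sides was 15.9 in the second bin, 14.7 in the third, 14.2 in the fourth and 13.8 in the fifth bin, against 4.73 over all bins of the chromosomes' span, empty ones included. Around single bins with 20 to 29 the first flank held 12.6 and the fifth 11.01. Levels 5 kb away from a dense run thus remained well above the mean of the chromosomes. By the merging, the first flank of a dense run is below 40, and that of a single bin with 20 to 29 has no value from 20 to 29, so the first flanks of the 2 sets are not like for like.

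The fall was often uneven between the sides. In 731 runs (25.6%) both neighbouring bins held 20 or more CG cytosines, in 1299 (45.4%) only one side did, and in 829 (28.996%) neither did. The higher of the first flanks had a median of 25 and the lower 14. Only 16 of 5718 first flanks listed no CG (0.280%), and in the fifth bin 198 did (3.46%), against 30.4% of all bins in the span. In 19 runs all 10 flanking bins were below 10. Reads per CG cytosine were 16.9 in the first and 15.3 in the fifth bin, against 13.2 over all bins, and the both-strand share was 50.2% and 45.5%, against 35.9%.

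**Figure D3:**
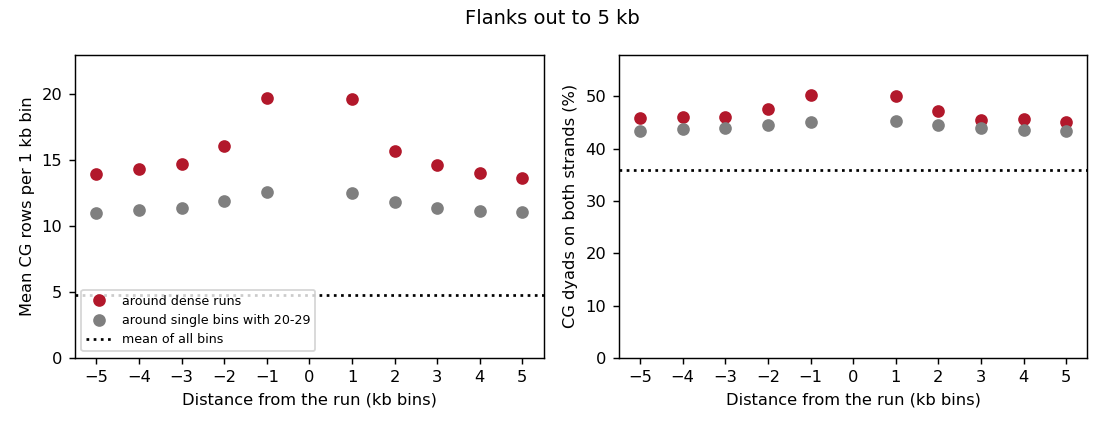
Mean number of listed CG cytosines per 1 kb bin (left) and share of CG dyads on both strands (right) in the 5 bins on each side of dense runs (red, 2859 runs) and of single bins with 20 to 29 CG cytosines (grey, 45678 bins), with all bins as the dotted line. Around dense runs the mean was 19.7 beside the run and 13.8 at 5 kb.

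The dense bins were unevenly spread over the chromosomes. They numbered 2.17 ± 0.930 per 1000 bins with a listed CG (SD, n = 17 chromosomes), from 0.944 on chromosome 14 and 1.06 on chromosome 6 to 3.55 on chromosome 5 and 3.63 on chromosome 17. With the same threshold, the chromosomes left out by the rule had 7.97 (chromosome 11, 809 bins) and 7.30 (chromosome 8, 707 bins). Their bins had 23.5 and 21.7 reads per CG cytosine, against 16.3 to 18.04 on the 17 chromosomes. The number of dense bins and the reads per cytosine were thus both higher on chromosomes 8 and 11, and their parts cannot be told apart here.

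**Figure D4:**
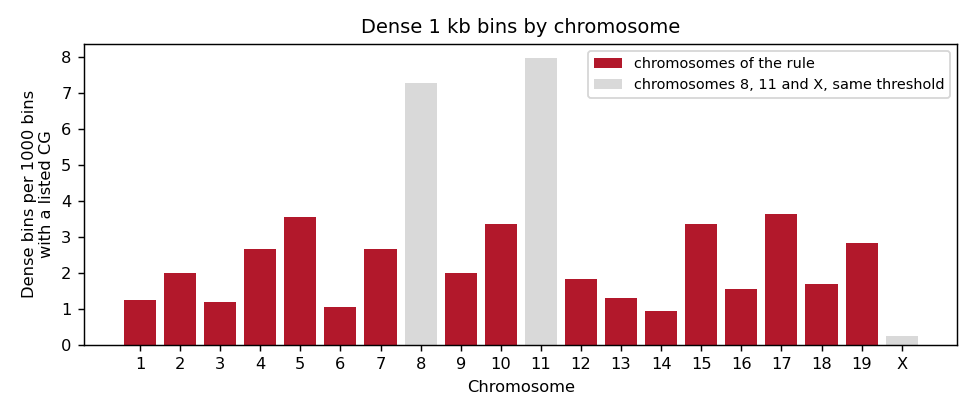
Dense bins per 1000 bins with a listed CG, for each chromosome (bars from 0). The 17 chromosomes of the rule (red) lie between 0.944 and 3.63, while chromosomes 8 and 11 (grey, same threshold) lie at 7.30 and 7.97 and X at 0.237.

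Along the chromosomes the dense bins gathered towards the distal end. With each chromosome cut into 10 equal stretches, the last stretch held 22.9% of the dense bins and the one before it 16.0%, against 11.3% and 11.2% of all bins with a listed CG. The first stretch held 4.21% of the dense bins, against 9.17% of all. Of 2170 megabases with a listed CG, 854 (39.4%) held a dense bin. The 72 megabases with 10 or more held 1087 of the dense bins (33.9%). Chromosome 10 from 79000001 to 80000000 had 50, the next megabase had 41, and chromosome 15 from 76000001 to 77000000 had 33. The median gap from a run to the nearest other run was 44 kb, 469 runs (16.4%) had another within 5 kb and 66.2% had another within 100 kb.

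Recurring patterns were looked for over all 17 chromosomes and not among the dense bins alone. A series of 6 successive distances between listed dyads that recurred elsewhere on the 17 chromosomes was found in 41 dense bins (1.28%, 0.919 to 1.73), against 94 of 14152 bins with 30 to 39 CG cytosines (0.664%, 0.537 to 0.812). A series recurs only where both copies list the same dyads, so diverged or partly listed copies are missed. A bin with more dyads also holds more series that can recur. Dense bins had a median of 29 dyads, against 21 in bins with 30 to 39, so these shares are not like for like.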

How the data were processed

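The 2 E14 libraries (replicates 1 and 2 of 1 group) of AbaSI-cut DNA were sequenced; per the submitters' processing notes CASAVA 1.8.2, Bowtie and build mm9 were used. The deposited read counts are whole numbers, 1 per listed cytosine, pooled by the authors in a way not given in the sources used here, which also leave out read filters, the treatment of PCR copies and the listing minimum. The lowest count was 2. The table held 176006227 reads on 13025343 cytosines, 10249082 of them CG on the 17 chromosomes. An unlisted cytosine is not a measured 0.

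Cytosines were put in 1 kb bins from position 0, and positions are printed 1-based. Dyads were assigned by their plus-strand cytosine. Shares have exact Clopper-Pearson intervals at 95%, for counting error only, since PCR reads are not independent molecules. Promoter windows of 300 bases were placed with at least 6 matching CGs, 0 mismatches and a score of 12 or more, the score being the number of matches times the negative log10 of the window's CG density. Windows were at hand for 16 of the 17 chromosomes; 108 dense bins lay on the other. Functions were tested on simulated data.

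Regions were named by a rule: the 10 bins with the most CG cytosines, the 5 with the most and the fewest reads and the 5 longest runs. After the chromosome 17 run had been seen, the densest bins and those with the most reads outside it were named too. The dense bins, comparisons and lists were chosen with earlier results of these data known, and the genes named were chosen after their values were seen. Gene models of mm9 were not used here. Python 3.11.15, numpy 2.4.6, pandas 2.3.3, scipy 1.17.1, numba 0.67.0 and matplotlib 3.10.9 were used.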

Additional observations from a re-analysis of the deposited data

How the results depend on the processing

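The 8 results were recomputed under alternatives to give 73 values, of which 30 kept to the allowed spread and 43 moved. The allowed spread was 1.5 times for counts, the SD over 17 chromosomes for reads per CG cytosine (0.463) and for the first flank (1.08), and the counting interval for shares, which is narrow. The cause of a move was not tested, apart from what an alternative removes by its construction. Thresholds of 30 and 50 CG cytosines gave 17359 and 636 bins in 14735 and 576 runs, 54.1% and 52.1% of dyads on both strands, first flanks of 15.7 and 23.9, CH shares of 1.96% and 2.72% and 2CG shares of 14.1% and 21.6%. A choice by 20 or more dyads gave 17333 bins in 14851 runs, with 16.2 reads, 48.5%, 15.3, 1.94% and 15.1%. Minimums of 5 and 10 reads per cytosine gave 1847 and 208 bins in 1675 and 186 runs, 18.7 and 23.7 reads, 50.2% and 40.5% on both strands, CH shares of 1.38% and 2.30% and 2CG shares of 19.2% and 24.6%, with a first flank of 18.6 at 10 reads. Without class 2CG there were 1046 bins in 955 runs, with 15.5 reads, 47.2% on both strands, 2.75% CH and, by construction, 0% 2CG. Bins started at position 500 gave 28.8 reads and 2.01% CH. A single bin, chromosome 2 from 98506501 to 98507500, set that mean with 1724931 reads on 45 CG cytosines. Without it the mean was 16.9 and the CH share 1.86%. With bins from position 0 its CGs fell in bins of at most 27. The next alternatives were added after seeing the data. Without the chromosome 17 run the CH share was 1.42%, and bins chosen by 20 or more plus-strand CG cytosines had 17.1% 2CG. A placement score of at least 14 gave 63 genes with a start in a dense bin. Leaving out the top 0.1% of sites moved 0 of the 7 results on bins. No paired analysis was possible because the table pools the libraries, and for the same reason no fit without a replicate was made. Overlap with gene models and base content were not run, since no mm9 genome was used here.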

Other observations

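On the X chromosome, which the rule leaves out, the same threshold gave 13 bins, or 0.237 per 1000 bins with a listed CG. These 13 bins had 39.6 reads per CG cytosine, 67.3% of dyads on both strands (62.6 to 71.7) and 7.97% CH among their sites (6.18 to 10.1), against 8.74 reads per CG cytosine and 17.7% of dyads on both strands in the other X bins.

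Some dense bins held the starts of more than 1 gene. The bin of chromosome 4 from 129168001 to 129169000, with 47 CG cytosines, held those of Tssk3, a testis kinase, with 10 of 10 CGs listed, and of Fam229a with 13 of 19. The bin of chromosome 2 from 84499001 to 84500000, with 53, held those of Btbd18, with 12 of 23 CGs listed, and of Ctnnd1, a catenin, with 16 of 30. Further starts in dense bins, named here after their values were seen, were those of Scn8a, a sodium channel, with 9 of 12 CGs listed, Gal, the neuropeptide galanin, with 10 of 16, and Jph2, a junctophilin of heart muscle, with 8 of 8.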
